A study of Mus musculus and Homo sapiens with 22 samples.

Results

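Small Cajal body-specific RNAs (scaRNAs) were followed through the RNA of tau aggregates. The human members were SCARNA2, SCARNA5, SCARNA6, SCARNA7, SCARNA9, SCARNA10, SCARNA12 and SCARNA13, taken by name from the 24 h tables of HEK293 cells, which list 23737 genes. All 8 were listed there, and 7 had reads. Of the same-named mouse genes, 5 (Scarna2, Scarna6, Scarna9, Scarna10 and Scarna13) were listed among 45093 genes of the mouse brain tables, and 4 of these had reads. Scarna5, Scarna7 and Scarna12 were not named in the mouse tables.

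Cajal bodies are nuclear bodies in which the small nuclear RNAs (snRNAs) of the spliceosome are modified and matured. scaRNAs base-pair with snRNAs and guide the enzyme to the nucleotide to be modified: box C/D RNAs, carried by fibrillarin, guide ribose methylation, and H/ACA RNAs, carried by dyskerin, guide pseudouridylation. Most scaRNAs are cut out of the introns of host genes, and the protein WRAP53 brings those with a Cajal body box to the body.

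The human cells were HEK293, of embryonic kidney origin, used as biosensors: they carry the tau repeat domain (RD) with P301S as fusions to CFP and to YFP. At 24 h after transfection with 200 ug of clarified brain homogenate from P301S tau mice, RNA came from tau aggregates (n = 2), enriched by differential centrifugation and sorted as fluorescent particles, and from total cell RNA (n = 2). Both groups had thus received the homogenate. At 96 h, cells given 200 ug of homogenate (n = 3) were set against mock-transfected cells of the same line (n = 3). The brains of rTg4510 mice (P301L below) were 1 source of the mouse RNA; these mice carry the Camk2a-tTA driver, the tetO-MAPT*P301L transgene and a tdTomato-Syp/EGFP reporter. The other strain was rTg21221 (WT below), which carries Camk2a-tTA and tetO-MAPT*wt, with no such reporter in its label. In each strain, RNA was taken from the immunoprecipitate (IP) of insoluble tau with the tau-12 antibody, from the fraction insoluble in 1% sarkosyl, and from unfractionated brain (n = 2 in each of 6 groups). The IP was made after the sarkosyl extraction. Camk2a drives the transgenes mainly in forebrain excitatory neurons, and the labels give no age. For the P301L IP samples the title reads P301S and the strain field P301L; the strain field was followed.

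Reads on listed genes numbered 1.19 M and 0.884 M in the aggregate libraries, against 13.8 M and 13.9 M in the total libraries of HEK293 cells. The mouse libraries ranged from 2.49 M to 10.5 M, with both ends in the P301L IP. In the HEK293 cells, 5 markers of the line summed to 126 to 150.2 FPKM (fragments per kilobase of transcript, scaled to library size) in aggregates and 248 to 258 FPKM in total RNA. Of 5 markers of other cells, GFAP, ALB, PTPRC and HBB were at 0 in aggregates and HBB was at 0 in total RNA. HEK293 replicates were separate plates, and nothing is said of how the mouse replicates were taken, so p-values measure the spread between samples, which may be technical. In bulk samples, fewer cells of a type and less RNA per cell cannot be told apart.

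The first comparison set RNA from sorted tau aggregates against RNA of whole cells of the same line, to ask which RNAs accompany the aggregates. The scaRNAs did not move as a class: SCARNA12, SCARNA2 and SCARNA6 were higher in aggregates, SCARNA9, SCARNA7 and SCARNA5 were lower, and SCARNA10 did not pass the test. The largest differences were a 7.04-fold higher level of SCARNA12 and a 7.80-fold lower level of SCARNA9. All changes are log2 differences of group means on log2(FPKM + 1), with SE and Benjamini-Hochberg adjusted p from limma, and a gene was called at an adjusted p under 0.05. Of the 7 members tested, 3 were called higher and 3 lower, which is to be read against 41.9% of all 13185 genes tested (22.3% called higher and 19.7% lower). The groups did not overlap for 6 of 7 members, against 76.7% of all genes (41.8% higher and 34.9% lower). The median change was -0.32 over the members and 0.07 over all genes. A fit with a library left out has 1 library in a group and takes its spread from the other group alone. Such fits cannot show whether the 6 calls below depend on a single library, so only their changes are given. With each library left out in turn, SCARNA12 changed by 2.48 to 3.08 log2 units and SCARNA9 by -3.25 to -2.55.

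SCARNA2, a box C/D guide for U2 snRNA that is transcribed from a gene of its own, was the most abundant member. It had 1358 and 1504 FPKM in aggregates, against 426 and 452 FPKM in total RNA. Both aggregate libraries lay far above both total libraries, and the replicates of each group were close. SCARNA2 rose by 1.70 ± 0.11 log2 units in aggregates (adjusted p = 0.00625, limma), a ratio of means of 3.26. The call rests on 678 and 555 reads in aggregates, where its share of the total libraries would have given 219 and 162.

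SCARNA12 (U89) joins box C/D and H/ACA elements in a single RNA and lies in an intron of PHB2, the gene of prohibitin 2. Its level was 826 and 1248 FPKM in aggregates, against 139 and 156 FPKM in total RNA. It was the member with the largest rise, 2.78 ± 0.23 log2 units (adjusted p = 0.00744, limma). The aggregate replicates differed more from each other than the total replicates did, with means of 1037 ± 298 and 147 ± 12.5 FPKM (SD, n = 2 each). The reads were 265 and 296 in aggregates, against 47.2 and 34.9 expected from the share in total RNA.

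SCARNA6 (U88) is another mixed guide, from an intron of ATG16L1, an autophagy gene. It had 41.3 and 30.1 FPKM in aggregates, against 18.5 and 17.5 FPKM in total RNA. The groups did not overlap, but the aggregate values came from only 13 and 7 reads. The change of 0.93 ± 0.18 log2 units passed the test (adjusted p = 0.0244, limma). It did not pass when the total libraries were thinned to the aggregate depth (1.40 log2 units, adjusted p = 0.119), when a trend with gene length was removed (0.35 log2 units, adjusted p = 0.287) or with no filter on low values (adjusted p = 0.0502).

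SCARNA5 (U87) is also a mixed guide and comes from the same host gene as SCARNA6, yet its level went the other way. It had 27.4 and 12.4 FPKM in aggregates, against 53.2 and 58.8 FPKM in total RNA. Each aggregate library was below each total library, on 9 and 3 reads. The change was -1.55 ± 0.40 log2 units (adjusted p = 0.0475, limma), the call nearest to the threshold among the members. It was lost under 5 of the alternatives, at adjusted p-values of 0.0506 to 0.0942.

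SCARNA10 (U85), the mixed guide for U5 snRNA from an intron of the condensin gene NCAPD2, had 249.9 and 303 FPKM in aggregates, against 299.8 and 395 FPKM in total RNA. The groups overlapped, and the change of -0.32 ± 0.19 log2 units was not called (adjusted p = 0.240, limma). With a trend against gene length removed it was called lower, at -0.88 log2 units (adjusted p = 0.0176).

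SCARNA7 (U90) is a box C/D guide from an intron of KPNA4, which encodes an importin alpha. It had 58.6 and 86.2 FPKM in aggregates, against 206 and 269 FPKM in total RNA. Both aggregate libraries were far below both total libraries. SCARNA7 fell by 1.71 log2 units with an SE of 0.25 (adjusted p = 0.0147, limma), on 23 and 25 reads where 93.1 and 68.8 were expected from the share in total RNA.

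SCARNA9, a box C/D RNA from an intron of the centrosome gene CEP295, had the lowest level of any member with reads in aggregates. It stood at 9.54 and 16.1 FPKM in aggregates, against 88.6 and 112 FPKM in total RNA. Aggregates held 4 and 5 of its reads, where 42.0 and 31.0 were expected from the share in total RNA. The change was -2.90 ± 0.29 log2 units (adjusted p = 0.00847, limma), with no overlap.

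SCARNA13 (U93), an H/ACA tandem guide from an intron of SNHG10, was listed at 0 in all 4 libraries. A level of 9.13 or 12.3 FPKM in the aggregate libraries and of 0.792 or 0.785 FPKM in the total libraries would have given 3 reads, so its absence from aggregates could not be read at the depth of those libraries. These floors cover counting error only.

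**Figure D1:**
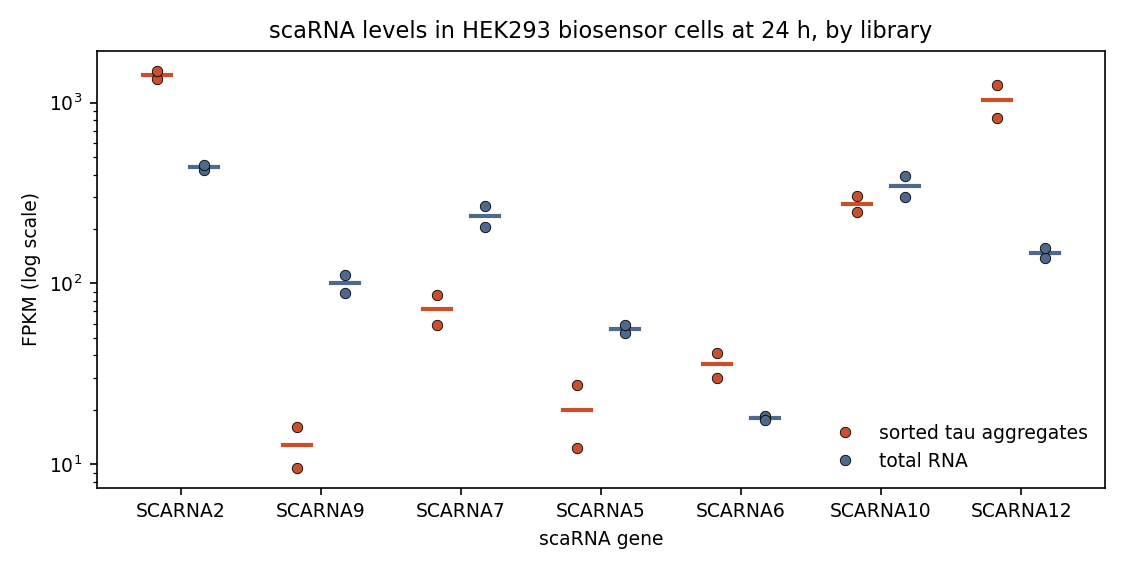
FPKM on a log axis of the 7 scaRNAs with reads, with each library as a point and the mean of the 2 libraries of a group as a bar, tau aggregates beside total RNA. SCARNA2 and SCARNA12 stand above total RNA in both aggregate libraries, SCARNA7, SCARNA5 and SCARNA9 below, and SCARNA10 overlaps.

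The order of the members thus differed between the fractions. In aggregates SCARNA2 made up 52.8% and 47.0% of the summed FPKM of the members and SCARNA12 32.1% and 39.0%. In total RNA SCARNA2 made up 34.6% and 30.9%, and SCARNA10, SCARNA7 and SCARNA12 followed. SCARNA10 gave 9.72% and 9.48% of that sum in aggregates, against 24.4% and 27.1% in total RNA. SCARNA7 gave 2.28% and 2.69% in aggregates, against 16.7% and 18.4% in total RNA. All members together summed to 2571 and 3199.9 FPKM in aggregates, against 1230.0 and 1461 FPKM in total RNA, and SCARNA2 and SCARNA12 made up most of the sum in aggregates.

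Members of both classes of guide were called in both directions. The box C/D members were SCARNA2, called higher, and SCARNA7 and SCARNA9, called lower. The mixed members were SCARNA12 and SCARNA6, called higher, SCARNA5, called lower, and SCARNA10, not called. No sign changed under any alternative. The log2 change of SCARNA12 ranged from 2.19 to 3.08, and that of SCARNA9 from -3.45 to -2.28, over 17 fits each.

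The host genes gave a measure of the transcripts whose introns hold the members other than SCARNA2. Of 6 host genes tested, 0 were called higher and 3 lower, where 22.3% of all genes were called higher and 19.7% lower. PHB2 had 125 FPKM in aggregates and 162 FPKM in total RNA (means), a change of -0.36 ± 0.07 log2 units (adjusted p = 0.0248, limma), while its SCARNA12 was higher. KPNA4 changed by -0.93 ± 0.12 (adjusted p = 0.0123) and CEP295 by -0.70 ± 0.09 (adjusted p = 0.0112), in the direction of SCARNA7 and SCARNA9. ATG16L1, host of SCARNA6 and SCARNA5, was at 18.2 FPKM in aggregates and 10.8 FPKM in total RNA and was not called (0.67 ± 0.23, adjusted p = 0.0845). NCAPD2 (-0.10, adjusted p = 0.655) and SNHG10 (0.14, adjusted p = 0.356) were not called. How reads over overlapping genes were assigned is not given in the sources used here, so reads of a host's unspliced transcript could be in the count of a scaRNA.

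**Figure D2:**
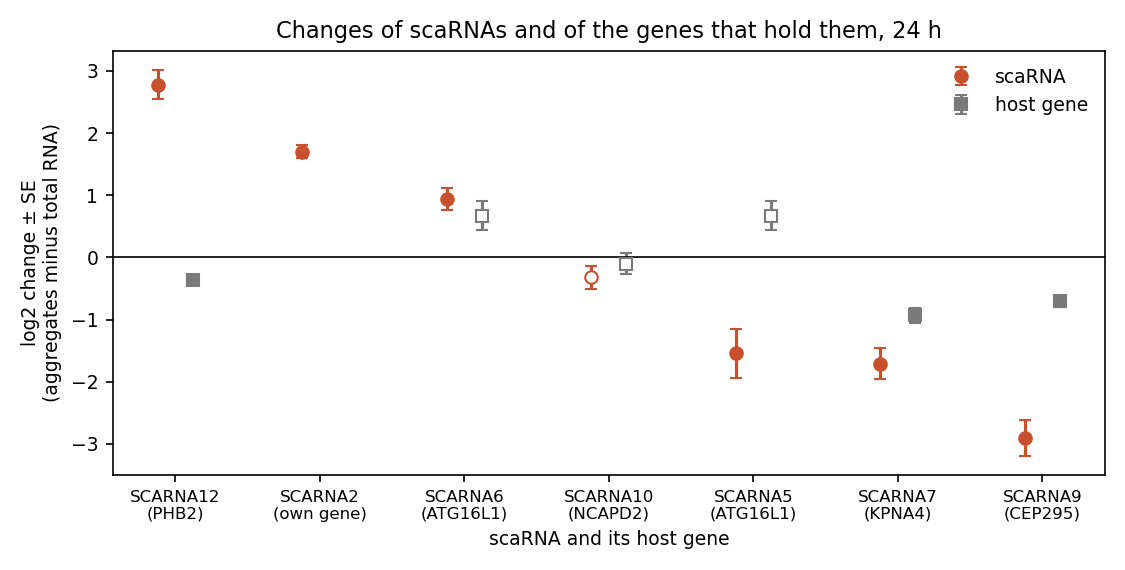
Log2 change with SE (aggregates minus total RNA) of each scaRNA and of its host gene, with filled symbols for genes called by limma. SCARNA12 stands at 2.78 while its host PHB2 stands at -0.36, and SCARNA6 and SCARNA5 stand on opposite sides of 0 with a shared host.

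All 14 other scaRNAs listed in the HEK293 tables were tested, and 3 were called higher and 4 lower. Over all genes, 22.3% were called higher and 19.7% lower. The median change of these other scaRNAs was -0.67. It was 0.25 over 11 genes, with SCARNA15 at its bound and 3 genes left out that had 0 reads in aggregates and no usable bound. SCARNA17 stood at 780.5 FPKM in aggregates and 140.2 FPKM in total RNA (2.46 ± 0.17, adjusted p = 0.00658, limma), on 117 and 111 reads against 298 and 257, the nearest parallel to SCARNA12. SCARNA15 had 0 reads in aggregates, against 25 and 22 in total RNA, and was at least 1.18-fold lower with a floor of 3 reads over the 2 aggregate libraries. SCARNA18, SCARNA11 and SCARNA14, also called lower, had 0 reads in aggregates and at most 8 in a total library, which allows no fold. SCARNA16, called higher, rests on 3 and 1 reads in aggregates against 3 and 4 in total RNA.

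The snRNAs of the spliceosome were called higher in aggregates more often than lower. Of 21 listed, 12 were tested, 7 were called higher and 0 lower, with a median change of 1.72, where 22.3% of all genes were called higher and 19.7% lower. RNU5D-1, chosen after its values were seen, had 0 and 9.81 FPKM in aggregates, against 82.5 and 55.6 FPKM in total RNA, and was not called (-4.39, adjusted p = 0.0590). RNU6ATAC, of the minor spliceosome, averaged 1188.5 FPKM in aggregates and 43.8 FPKM in total RNA (4.72 ± 0.44, adjusted p = 0.00802, limma). RNU11, which pairs with minor 5′ splice sites, averaged 772 FPKM in aggregates and 121 FPKM in total RNA (2.67 ± 0.08, adjusted p = 0.00580). RNU4-1 and RNU4ATAC were called higher as well, at 2.48 ± 0.19 and 2.02 ± 0.16. snRNA genes have near-identical copies that share reads, so values of single copies are uncertain. Some of the 12 also had few reads in aggregates: 2 and 1 for RNU2-1, 1 and 1 for RNU5B-1 and 3 and 0 for RNU5A-1.

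The mRNAs for proteins that carry scaRNAs were called lower more often than higher, where 22.3% of all genes were called higher and 19.7% lower. Of the 4 H/ACA core genes, 0 were called higher and 2 lower: GAR1 (-1.62 ± 0.11, adjusted p = 0.00658, limma) and DKC1, which encodes dyskerin (-0.48 ± 0.09, adjusted p = 0.0256). All 4 box C/D core genes were called lower, NOP58 (-0.80), FBL (-0.79), SNU13 (-0.78) and NOP56 (-0.52). Of 24 genes of Cajal bodies and snRNP assembly, 23 were tested, 1 was called higher (GEMIN4) and 10 lower, with a median of -0.36. NOLC1, a Cajal body and nucleolar chaperone, changed by -0.67 (adjusted p = 0.00832) and DDX20, a helicase of the SMN complex, by -0.76 (adjusted p = 0.0102). COIL, which encodes coilin, changed by -0.83 ± 0.17 (adjusted p = 0.0300) and WRAP53 by 0.12 ± 0.13 (adjusted p = 0.496). COIL and WRAP53 were chosen after their values were seen.

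In mouse brain the comparisons asked which RNAs accompany insoluble tau, in mice with P301L and with WT tau. Scarna6 and Scarna13 were lower in the IP than in total RNA in both strains, and Scarna2 was called lower in WT mice only, although the difference between strains was not itself called. Scarna9 did not differ between IP and total RNA. None of the members was called higher in any mouse comparison in the fit of all 12 libraries. In P301L mice, 0 of 4 members tested were called higher and 2 lower, against 41% of all 18979 genes called (26% higher and 15% lower). In WT mice, 0 were called higher and 3 lower, against 26.3% of all genes (13.9% higher and 12.4% lower). In each strain, IP and total RNA did not overlap for 3 of the 4 members, against 65.7% of all genes in P301L mice and 66.9% in WT mice. The 2 comparisons share no libraries, but they share the estimate of spread. The median change of the members was -1.91 in P301L mice and -2.11 in WT mice, against 0.16 and 0.11 over all genes. The 6 snRNA genes tested had medians of -1.75 and -1.74, so a median fall of about this size was not particular to the members. The 4 other Scarna genes, with few reads, had medians of -0.14 and 0.84. With only the 2 groups compared in the fit, 0 members were called lower in P301L mice and 1 in WT mice, with the same changes. That fit called 0 genes of the whole table in P301L mice and 1488 higher and 1633 lower in WT mice.

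Scarna6, the mouse counterpart of SCARNA6, lies at chr1:87784571-87784818 inside Atg16l1 in the RefSeq annotation of GRCm38.p6. In P301L mice it had 0 and 2.16 FPKM in the IP, 0.83 and 2.88 FPKM in the sarkosyl-insoluble fraction, and 50.9 and 38.7 FPKM in total RNA. In WT mice it had 0.50 and 3.40 FPKM in the IP, 0.97 and 1.33 FPKM in the sarkosyl-insoluble fraction, and 18.5 and 89.3 FPKM in total RNA. All 8 libraries of the insoluble fractions were below all 4 total libraries. They held 0 to 6 reads each, against 40 to 108 in total RNA, and the library at 0 could have held up to 4.54 FPKM at 3 reads.

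Scarna6 fell by 4.68 log2 units in the IP of P301L mice (SE 0.81, adjusted p = 0.00270, limma) and changed by -4.03 in the IP of WT mice (adjusted p = 0.00762). The WT call was lost without WT total replicate 2 (adjusted p = 0.0521) or WT IP replicate 1 (0.0552). With a library left out, the change ranged from -5.51 to -3.85 in P301L mice, with both ends set by leaving out an IP library. In WT mice it ranged from -5.14 to -2.92, with both ends set by leaving out a total library. It was also lower in the sarkosyl-insoluble fraction of P301L mice, by -4.09 (adjusted p = 0.0429), where 1 of 4 members was called lower and 2.72% of all genes were called (1.51% higher and 1.21% lower). In WT mice its change there was -4.29 and was not called (adjusted p = 0.172). Only 4 genes, or 0.0211% of those tested, were called in that comparison (0% higher and 0.0211% lower), where 0 of the 4 members were called and 2 had an unadjusted p under 0.05. Under the filter on expected reads (at least 10), Scarna6 was called there too (adjusted p = 0.0401). The sarkosyl call of P301L mice was lost without P301L total replicate 2 (adjusted p = 0.159) and without sarkosyl replicate 1 (0.189) or 2 (0.176).

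Scarna13, an H/ACA tandem guide at chr12:105031075-105031349 inside Snhg10, set the IP apart from the sarkosyl-insoluble fraction. In P301L mice it had 24.8 and 48.2 FPKM in the IP, 215 and 149.8 FPKM in the sarkosyl-insoluble fraction, and 353 and 169.9 FPKM in total RNA. In WT mice it had 21.1 and 31.4 FPKM in the IP, 132 and 163 FPKM in the sarkosyl-insoluble fraction, and 74.3 and 290.0 FPKM in total RNA. The 4 IP libraries were the lowest of the 12, and the sarkosyl and total libraries overlapped in both strains.

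Against total RNA, Scarna13 changed by -2.79 ± 0.61 log2 units in the IP of P301L mice (adjusted p = 0.00693, limma) and by -2.47 ± 0.61 in the IP of WT mice (adjusted p = 0.0180). The P301L call was lost without P301L IP replicate 1 (adjusted p = 0.0545), and the WT call without WT total replicate 2 (0.0976), WT IP replicate 1 (0.0969) or WT IP replicate 2 (0.0560). With a library left out, the change ranged from -3.31 to -2.26 in P301L mice and from -3.44 to -1.49 in WT mice, with both WT ends set by leaving out a total library. Against the sarkosyl-insoluble fraction it changed by -2.34 in the IP of P301L mice (adjusted p = 0.0496), where 1 of 4 members was called lower, none higher, and 8.55% of all genes were called (3.84% higher and 4.72% lower). In WT mice that change was -2.47 (adjusted p = 0.0264), again as the only member called, where 16.3% of all genes were called (7.18% higher and 9.15% lower). Neither IP against sarkosyl call held with every library left out in turn: in P301L mice the adjusted p was 0.225 and 0.133 without sarkosyl replicates 1 and 2 and 0.264 without IP replicate 1, and in WT mice it ran from 0.0782 to 0.145. Sarkosyl against total RNA gave -0.45 (adjusted p = 0.691) in P301L mice and 0.00 ± 0.61 in WT mice, neither called.

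**Figure D3:**
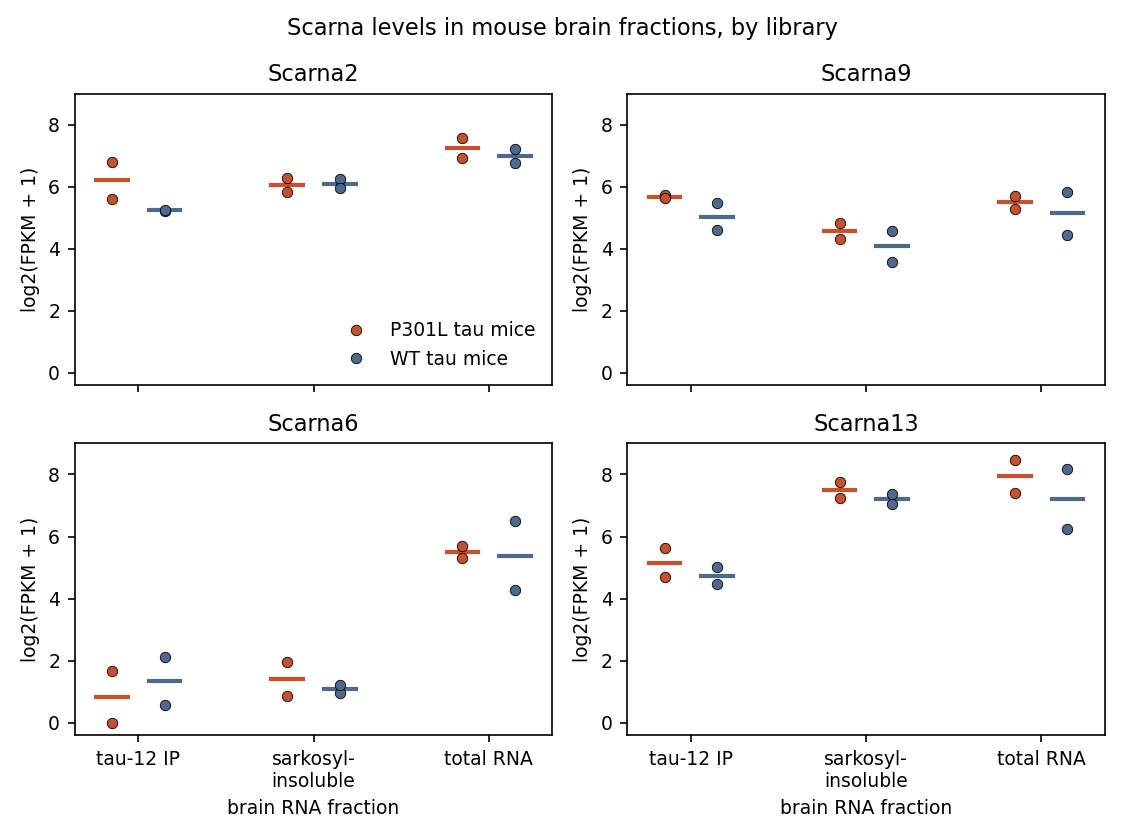
log2(FPKM + 1) of 4 Scarna genes in 12 mouse brain libraries, each point a library and each bar the mean of 2, with P301L tau mice beside WT tau mice in the tau-12 IP, the sarkosyl-insoluble fraction and total RNA. Scarna6 is near 0 in both insoluble fractions, Scarna13 is low in the IP, and Scarna9 overlaps between IP and total RNA.

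Scarna2, at chr3:108554342-108554402 in RefSeq with no gene spanning it, had 47.5 and 111 FPKM in the IP, 76.3 and 56.2 FPKM in the sarkosyl-insoluble fraction and 120.1 and 187 FPKM in total RNA of P301L mice. In WT mice it had 36.2 and 37.0 FPKM in the IP, 74.7 and 60.6 FPKM in the sarkosyl-insoluble fraction, and 107 and 147 FPKM in total RNA. In both strains both IP libraries were below both total libraries, and the P301L IP replicates differed by the largest ratio of the 6 pairs of replicates of this gene. The IP change was -1.75 ± 0.37 log2 units in WT mice (adjusted p = 0.00945, limma) and -1.03 ± 0.37 in P301L mice (adjusted p = 0.0525, not called). The WT call was lost without WT total replicate 2 (0.0698) or WT IP replicate 2 (0.0512). The P301L value was called under 5 alternatives, at adjusted p-values of up to 0.0484, and without P301L total replicate 1 (0.0460) or P301L IP replicate 2 (-1.64, 0.00579). Without P301L IP replicate 1 it was -0.43 (adjusted p = 0.329), and with only the 2 groups in the fit its adjusted p was 0.240. In human aggregates SCARNA2 was higher than in total RNA, and in mouse IPs Scarna2 was lower or not called.

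Scarna9 lies at chr9:15326289-15326330 inside Cep295. It had 51.5 and 49.1 FPKM in the IP, 18.8 and 27.2 FPKM in the sarkosyl-insoluble fraction and 51.4 and 37.6 FPKM in total RNA of P301L mice. In WT mice it had 43.2 and 23.1 FPKM in the IP, 11.0 and 22.7 FPKM in the sarkosyl-insoluble fraction and 21.0 and 56.3 FPKM in total RNA. In P301L mice the sarkosyl values were below the others, and in WT mice the groups overlapped for IP and total RNA. Its IP change against total RNA was 0.19 ± 0.49 in P301L mice (adjusted p = 0.789, limma) and -0.12 ± 0.49 in WT mice (adjusted p = 0.889). Against the sarkosyl-insoluble fraction, it was 1.12 in the IP of P301L mice (adjusted p = 0.171) and 0.96 in the IP of WT mice (adjusted p = 0.225), neither called. Its counts were low, 6 to 36 reads a library. Its share of the member FPKM sum was 41.6% and 23.3% in the P301L IP and 42.8% and 24.4% in the WT IP, against 8.67% to 9.67% in the 4 total libraries.

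Scarna10, at chr6:125186361-125186431 inside Ncapd2, was listed at 0 in all 12 libraries. The lengths implied by the deposited values (414 bases for Scarna2, 265 for Scarna6, 70 for Scarna9 and 275 for Scarna13) differ from the RefSeq spans of 61, 248 and 42 bases for the first 3 and equal it for Scarna13, so levels per length depend on the annotation used.

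Between strains, no member was called. In the IP, where 17.4% of all genes were called (12% higher and 5.47% lower), Scarna2 changed by 0.97 ± 0.37 log2 units in P301L over WT mice (adjusted p = 0.106, limma), with both P301L libraries above both WT libraries. It was called under the filter of at least 10 expected reads (adjusted p = 0.0450), with voom (0.0164) and without P301L IP replicate 1 (1.58, adjusted p = 0.0322). Without P301L IP replicate 2 it was 0.37 (adjusted p = 0.418), and with only the 2 groups in the fit it was not called (adjusted p = 0.294). The other 3 members had IP changes of -0.53 to 0.65. In the sarkosyl-insoluble fraction (2.96% of all genes called, 2.19% higher and 0.769% lower) the members changed by -0.04 to 0.49, and in total RNA (5.86% called, 2.75% higher and 3.11% lower) by 0.12 to 0.73. By limma, 0 members were called in these 2 comparisons, and 0 had an unadjusted p under 0.05 in either. The difference of the IP change between strains was 0.72 ± 0.53 for Scarna2 (adjusted p = 0.457) and -0.64 to 0.31 for the others, where 2.13% of all genes were called (1.24% higher and 0.896% lower).

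Among the mouse hosts tested, only Atg16l1 (Scarna6) and Cep295 (Scarna9) hold a member with reads, and Snhg10 was not analysed here. Of 5 tested in the IP of P301L mice, 2 were called higher, Ncapd2 (0.88, adjusted p = 0.00556, limma) and Atg16l1 (0.46, adjusted p = 0.0184), and 1 lower, Kpna4 (-0.58, adjusted p = 0.0201). Atg16l1, which holds Scarna6, averaged 23.4 FPKM in the IP and 16.7 FPKM in total RNA of P301L mice. In WT mice, Cep295 was called higher (0.49, adjusted p = 0.0471) and Phb2 lower (-1.04, adjusted p = 0.000383). Over all genes, 26% were called higher and 15% lower in the P301L comparison, and 13.9% and 12.4% in the WT comparison.

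The mRNAs of guide particle proteins differed in direction in the mouse IP. The counts below are to be read against all genes tested. Of those, 26% were called higher and 15% lower in P301L mice, and 13.9% and 12.4% in WT mice. The mRNAs of Nop10 and Nhp2, H/ACA core proteins, were called lower in both strains, Nop10 at -1.75 (adjusted p = 0.00244, limma) in P301L mice and -1.93 (adjusted p = 0.00216) in WT mice. Gar1 was called higher in P301L mice (0.71, adjusted p = 0.0346). Of 4 box C/D core genes, 0 were called higher and 1 lower in each strain, Snu13 (-1.57 in P301L and -1.26 in WT mice). Snu13 averaged 12.9 FPKM in the IP and 40.3 FPKM in total RNA of P301L mice, and 13.2 and 32.9 FPKM in WT mice. Of 22 Cajal body genes tested, 4 were called higher and 4 lower in P301L mice, led by Sart3, a recycling factor for U4/U6 snRNPs (1.64, adjusted p = 0.000414), and Ice1 (1.01, adjusted p = 0.00238). In WT mice 0 were called higher and 3 lower: Phax, the snRNA export adaptor (-0.68), Ruvbl1 (-0.77) and Ddx20 (-0.51). Of 6 snRNA genes tested, 0 were called higher in either strain, and 2 were called lower in P301L mice, Rnu11 (-3.15, adjusted p = 0.0162) and Rnu1a1 (-2.29, adjusted p = 0.0445). Each had 0 and 1 reads in the IP, against 13 and 5 reads of Rnu11 and 4 and 6 reads of Rnu1a1 in total RNA. The 4 other Scarna genes (Scarna3a, Scarna3b, Scarna8 and Scarna17) had at most 5 reads a library, and 0 were called.

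Cell type markers moved with fraction and strain beside these values. The 2 choroid plexus markers (Ttr and Kl) summed to 147 to 174 FPKM in the IP, 283 to 293 in the sarkosyl-insoluble fraction and 460.0 to 624 FPKM in total RNA of P301L mice, and both were called lower in the IP of each strain. The 3 astrocyte markers summed to 584 to 651 FPKM in P301L and 145 to 216 FPKM in WT libraries. In the IP of P301L mice Gfap was called higher and Aqp4 and Slc1a3 lower, and in WT mice Gfap and Slc1a3 were called lower. The 3 microglial markers summed to 23.3 to 34.4 FPKM in the IP and 35.7 to 46.5 FPKM in total RNA of P301L mice, with 1 of 3 called lower. In WT mice they summed to 12.9 to 16.7 FPKM in the IP and 27.9 to 28.1 FPKM in total RNA, with 2 of 3 called lower. The 5 neuron markers summed to 549.9 to 764 FPKM in P301L and 910 to 1072 FPKM in WT libraries, but did not move together. In total RNA 2 of 5 were called lower in P301L than in WT mice, while Gad1 averaged 104.2 and 103.1 FPKM. Against total RNA, 1 was called higher and 1 lower in the P301L IP, and 0 in the WT IP. Of 3 oligodendrocyte markers, 2 were called lower in the P301L IP and 1 in the WT IP. Over all genes, 26% were called higher and 15% lower in the P301L IP against total RNA, and 13.9% and 12.4% in the WT IP. The 2 endothelial markers were called higher in P301L than in WT mice in the IP only. The part of these markers in the Scarna differences was not tested.

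Over the 12 mouse libraries, the genes whose log2 values ran most like a member's were mt-Co3, Vps35 and Cct4 for Scarna13 (Pearson r of 0.944, 0.936 and 0.932), among 8733 genes compared. For Scarna2 they were Cwc15 and Bex1 (0.938 and 0.930), and for Scarna9 mt-Nd6, Anp32e and Snord15a (0.801, 0.778 and 0.767). The libraries share fractions and strains, so these are descriptions.

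At 96 h the authors' deposited tables address the splicing of the host genes in cells with and without aggregates. They hold no per-sample values and no scaRNA rows. An interval left between 2 intron entries of a host, of the listed length of the member to within 1 base and the only such interval in that host, was found for 5 members on hg38. These are SCARNA5 (chr2:233275727-233276002) and SCARNA6 (chr2:233288676-233288940) in ATG16L1, SCARNA7 (chr3:160514907-160515236) in KPNA4, SCARNA9 (chr11:93721513-93721866) in CEP295 and SCARNA10 (chr12:6510222-6510551) in NCAPD2. For SCARNA12 and SCARNA13 no interval matched.

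Of the 10 intron pieces on both sides of these scaRNAs, 6 have an adjusted p in the authors' deposited table, and 0 of these were called. Those beside SCARNA5 changed by 0.23 and 0.25 log2 units with against without aggregates (adjusted p = 0.882 and 0.808 in the authors' deposited table). Those beside SCARNA6 changed by 0.18 and 0.28 (adjusted p = 0.772 and 0.783 in the authors' deposited table). Those beside SCARNA7 changed by 0.92 (unadjusted p = 0.0225) and 0.46, with no adjusted p in the authors' deposited table. Beside SCARNA9 the authors' deposited table gives -0.05 (adjusted p = 0.978) and 0.20 (no adjusted p), and beside SCARNA10 it gives -0.03 (no adjusted p) and 0.54 (adjusted p = 0.545).

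Among the other intron entries of the hosts, 3 passed an adjusted p under 0.05 in the authors' deposited table. There, 1.5% of the 82091 introns with an adjusted p were called higher and 0.146% lower. All 3 host introns were higher with aggregates. Entries with an adjusted p numbered 16 each in ATG16L1 and CEP295, 11 in NCAPD2, 10 in KPNA4, 5 in PHB2 and 1 in SNHG10. KPNA4, host of SCARNA7, held 2 of them, chr3:160521911-160525799 (0.83 ± 0.20, SE, adjusted p = 0.00563) and chr3:160528040-160530854 (0.91 ± 0.24, adjusted p = 0.0184) in the authors' deposited table. PHB2, host of SCARNA12, held the other, chr12:6965917-6966422 (1.00 ± 0.29, adjusted p = 0.0419) in the authors' deposited table. No interval matched SCARNA12, so its place relative to this intron is not known. Values above 0 were given for 18 of 18 entries of KPNA4 (median 0.64), 20 of 20 of ATG16L1 (0.32), 7 of 7 of PHB2 (0.55), 24 of 31 of NCAPD2 (0.19), 14 of 26 of CEP295 (0.08) and 0 of 1 of SNHG10 (-0.16) in the authors' deposited table. Over all its introns, 87200 of 172099 were above 0. Entries of 1 gene share its transcripts and are not replicates.

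**Figure D4:**
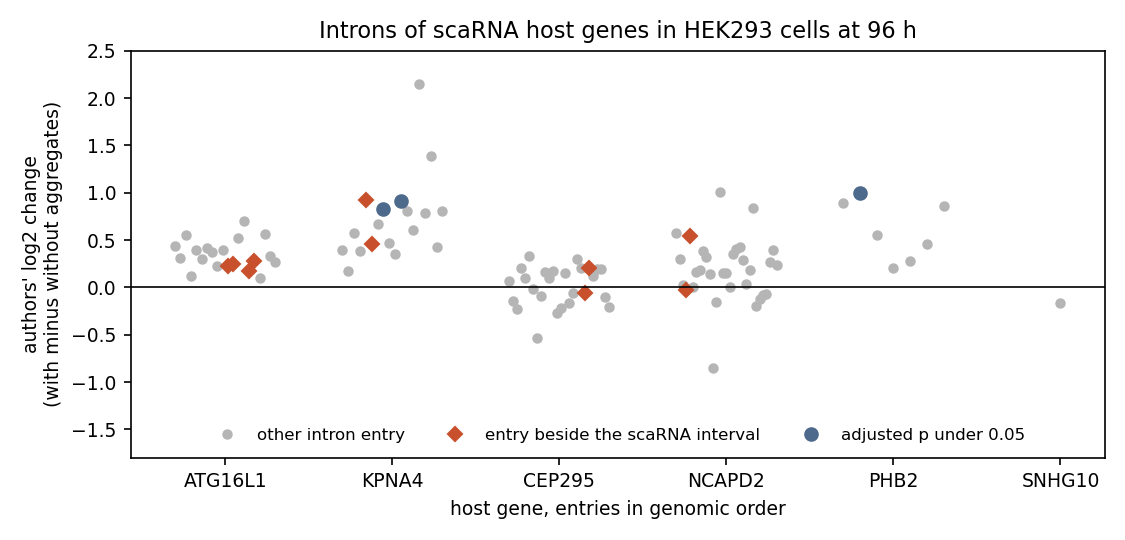
The authors' log2 change (with minus without aggregates, 96 h) of each intron entry of the 6 host genes in genomic order, diamonds beside a scaRNA interval and coloured circles for adjusted p under 0.05. All 18 entries of KPNA4 and all 20 of ATG16L1 lie above 0, and CEP295 has 14 of 26 above 0.

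The header of the intron table does not state its sign. Of 41 introns that changed in the authors' deposited tables of both introns and splicing, 38 had the same sign (92.7%), so positive values were taken as higher with aggregates. In the splicing table no variation of a host was called, at a change in inclusion level (PSI) of at least 0.1 and a probability of at least 0.95 in the table, which gives the probability that the change is at least 0.2. The largest change among the hosts in the authors' deposited table was 0.07, in KPNA4.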

How the data were processed

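STAR 2.6.0c and the builds hg38 and GRCm38.p6 are named in the submitters' processing notes, and no read counter or annotation release is given. The 24 h tables, as deposited, are in FPKM, with length taken from the longest transcript per the file headers. The mouse tables carry no unit; as deposited they behave like FPKM, because values of a gene step by whole reads (within a tolerance of 0.02). For 96 h the authors deposited an intron table with a mean normalized count (signal), log2 change, its SE, p-value and adjusted p. They also deposited a splicing table of other values, PSI and a probability score, per the file headers, and the depth of both is unknown.

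Reads recovered from the FPKM steps served for depth, read filters, thinning and voom. Genes reaching 1 FPKM in 2 or more libraries entered limma 3.58.1 (R 4.3.3), with a trend of variance on level and log2(FPKM + 1) as input, which understates changes of low genes. The 4 HEK293 libraries were fitted by themselves (2 residual degrees of freedom). The 12 mouse libraries shared a fit of 6 groups (6 residual degrees of freedom). The call was a Benjamini-Hochberg adjusted p under 0.05 across the genes tested. Replicates differed by a mean squared z of 2.33 to 15.4, where sampling noise alone gives about 1, so no libraries were merged. The code was tested on simulated data.

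The text names every member and host gene, up to 6 other scaRNAs and 4 snRNAs by size of change among those called, up to 4 genes of each protein list by smallest p, 3 most similar genes by Pearson r (1 of those for Scarna2 is not reported here), and introns beside a member or past the authors' adjusted p. The members and lists were chosen with earlier results of these data known. Alternatives were other pseudocounts, filters, scalings and fits, thinning, a replicate block and leaving out each library.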

Additional observations from a re-analysis of the deposited data

How the results depend on the processing

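In HEK293 cells no member changed sign under any alternative. With a replicate block, 3 members were called higher and 3 lower. Fits of these cells with a library left out take their spread from 1 group alone, so their calls are not given. Whether replicate numbers pair the samples is not known. The replicate differences of the groups correlated at r = 0.0605 in HEK293 cells and at -0.104 to 0.0998 in mice. Such low values show no pairing but cannot exclude it. The block changed 1 member count: for P301L IP against sarkosyl, 0 members were called lower (Scarna13, adjusted p = 0.0518), against 1 without it. For P301L against WT in total RNA, where r was -0.101, an added fit with crossed numbers, chosen after seeing the data, called 0 members and 0 genes higher and 0 lower, as did the fit of the 2 groups without it, against 232 and 298 genes with the block and 521 and 591 genes in the fit of all 12 libraries.

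With only the 2 groups compared, the members called lower were 0 (P301L IP against total), 1 (WT IP against total), 0 (P301L sarkosyl against total), 0 (P301L IP against sarkosyl) and 2 (WT IP against sarkosyl). These fits left every change as it was and called 0 genes of the whole table in the 3 P301L comparisons, and 1488 higher and 1633 lower (WT IP against total) and 841 and 1141 (WT IP against sarkosyl). P301L sarkosyl against total gave 0 with a pseudocount of 0.1, no filter or no trend and 2 with at least 10 reads expected or voom, and WT sarkosyl against total gave 1 with at least 10 reads expected. P301L IP against sarkosyl gave 0 with a pseudocount of 0.1, no filter or no trend, and WT IP against sarkosyl gave 0 with no filter. P301L against WT in the IP gave 1 member called higher with at least 10 reads expected or voom. Leaving out libraries in turn gave 1 to 3 called lower for P301L IP against total, 0 to 3 for WT IP against total, 0 to 1 for P301L sarkosyl against total and for P301L IP against sarkosyl, 0 for WT IP against sarkosyl, and 0 to 1 called higher for P301L against WT in the IP. The cause was not tested.

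Signs turned only for members that were not called. For P301L IP against total, Scarna9 gave -0.067 with median centring, -0.24 with the length trend removed and -0.031 to 0.41 with libraries left out. For WT IP against total, Scarna9 gave 0.12 with voom and -0.81 to 0.57 with libraries left out. For WT sarkosyl against total, Scarna13 gave 9.9e-05 (pseudocount 0.1), 0.24 (quantile), 0.15 (length trend), 0.13 (voom) and -0.98 to 0.97 with libraries left out. For P301L against WT, Scarna6 gave 0.012 in the IP (voom) and -0.041 in total RNA (length trend), and Scarna2 gave 0.025 in the sarkosyl fraction (quantile). With libraries left out, P301L sarkosyl against total gave -0.97 to 0.078 for Scarna13. P301L IP against sarkosyl gave -0.46 to 0.75 for Scarna2 and -1.41 to 0.25 for Scarna6, and WT IP against sarkosyl gave -0.52 to 1.04 for Scarna6. P301L against WT in the IP gave -1.36 to 0.30 for Scarna6 and -0.053 to 0.88 for Scarna13. In the sarkosyl fraction it gave -0.26 to 0.18 for Scarna2, -0.0037 to 0.98 for Scarna9 and -0.23 to 0.86 for Scarna6. In total RNA it gave -0.99 to 1.22 for Scarna6, -0.24 to 1.71 for Scarna13, -0.35 to 1.03 for Scarna9 and -0.065 to 0.57 for Scarna2. The difference of IP changes between strains gave -1.75 to 0.46 for Scarna6, -1.30 to 0.66 for Scarna13 and -0.38 to 1.00 for Scarna9.

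Scaling moved the median change of all genes by over 0.1 in mice, most for P301L IP against total (0.16, and -0.10 with median centring). The genes called over the whole table varied in HEK293 cells. There 2935 were called higher, against 1654 to 4311 under the alternatives that kept every library. Genes called lower numbered 2595, against 1666 to 2995. Depth limits SCARNA5, SCARNA6 and SCARNA9 in aggregates and Scarna6 in the mouse insoluble fractions, which rest on 0 to 13 reads a library; with at least 10 reads expected, SCARNA5 and SCARNA6 were not tested.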
